A study of Homo sapiens with 4 samples.

Results

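The genes described here are 8 core histone variants whose mRNAs end in a poly(A) tail: H2AZ1, H2AZ2, H2AX, H2AJ, MACROH2A1, MACROH2A2, H3-3A and H3-3B. They were taken by name, as every probe outside the array's controls whose identifier maps to one of these genes. No measured value picks a gene, but the list was chosen with earlier results of these data known. All 8 had a probe, out of 24154 genes with a probe on the array, and all 8 were among the 13039 genes kept after the filter on dim probes. They had 15 probes, of which 12 were kept and 11 were well above background on all 4 arrays.

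The cells were KYSE180, an established line of esophageal squamous cell carcinoma, with no treatment named in the labels. TIA1 RIP is RNA recovered with an antibody to the RNA-binding protein TIA1, from cytoplasmic lysate according to the study's methods, and total RNA is the input. The sources used here do not say whether that input came from the same cytoplasmic lysate or from whole cells. Each group had 2 arrays, and 0.2 µg of RNA per array was labelled with the dye Cy3. The comparison asks which transcripts made up a larger or smaller part of the TIA1 immunoprecipitate than of the input. RNA from control IgG immunoprecipitates was not analysed here, so RNA held by TIA1 and RNA carried along by the beads cannot be told apart. RNA of many cells was pooled on each array, so fewer cells with a transcript and less of it per cell cannot be told apart. The labels do not say whether replicates came from separate cultures, so the spread between arrays may be technical.

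The second total RNA array stood apart from the others. The 75th percentile of its processed signal was 69.9, against 714 on the first total RNA array, and TIA1 RIP replicates 1 and 2 reached 1514 and 1271. Of its spots 32.2% were well above background, against 45.8% to 48.4% on the other arrays, and no spot outside the controls was saturated on any array. Across the genes kept, the scaled log2 signal of the TIA1 RIP replicates correlated with r = 0.932 and that of the total RNA replicates with r = 0.733. These correlations are across genes, which are not independent replicates. Results are therefore also given against each total RNA array alone. All 11 squamous epithelium markers passed the filter, with log2 ratios of TIA1 RIP over total RNA from -1.85 (S100A2) to 0.83 (DSC3). Of 9 markers of other cell types 3 passed, COL1A1 (-2.17), PTPRC (-0.01) and CD68 (0.14).

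Most histone protein is made in S phase from gene clusters whose mRNAs have no introns and no poly(A) tail. Their 3′ end is a short stem-loop, which the stem-loop binding protein SLBP holds during processing, export and translation. Variant histones are made through the whole cell cycle from separate genes, most of them with introns, and their mRNAs are cleaved and polyadenylated like other mRNAs. TIA1 is known to bind U-rich stretches of RNA, often in 3′ untranslated regions (UTRs). The stem-loop genes are called cluster histones here, and they were taken by symbol over the H2A, H2B, H3 and H4 families.

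The 3′ ends of the annotated transcripts (GENCODE, GRCh37) show how the classes differ, and that H2AX has features of both. The stem-loop was searched on the transcript strand of the 3′ UTR as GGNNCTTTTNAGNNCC, written as DNA, and it was found in 56 of 59 cluster histone transcripts (94.9%) and in 75 of 19528 coding genes (0.384%). Among the variants it was found in H2AX alone, 50 nt after the stop codon, where the annotated H2AX transcript runs on for another 1024 nt. The cluster histone H2BC21, named after its features were seen, has a similar layout, with a stem-loop 57 nt after the stop codon, 1729 nt beyond it and AATAAA near the end. The following lines set the H2AX stem-loop beside those of the cluster histones with the lowest, the middle and the highest log2 ratio, with the motif in capitals.
H2AX stem-loop (chr11:118965603-118965628, minus strand): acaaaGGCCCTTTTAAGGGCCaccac
H2AC11 stem-loop (chr6:27101289-27101314, plus strand): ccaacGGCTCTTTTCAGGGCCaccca
H2AC16 stem-loop (chr6:27833551-27833576, plus strand): acaacGGCTCTTTTCAGAGCCaccta
H3C1 stem-loop (chr6:26021155-26021180, plus strand): gcaaaGGCTCTTTTCAGAGCCaccac

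Of the 8 variant transcripts 75% held AATAAA or ATTAAA, the usual poly(A) signals written as DNA, within the last 40 nt, against 76.4% of all coding genes and 3.39% of cluster histones. H2AZ2 and MACROH2A1 had neither word in that window. The ends of 5 variant transcripts are shown from just before the signal, with the signal in capitals, because most cluster histones have no such signal at their end.
H2AZ1 end (chr4:100869245-100869268, minus strand): gttcAATAAAggtcatatcccaaa
H2AX end (chr11:118964584-118964612, minus strand): ttttATTAAAggattgttttttttttaaa
H2AJ end (chr12:14927935-14927958, plus strand): agccAATAAAgttggtgaaaatcg
H3-3A end (chr1:226259689-226259718, plus strand): atacATTAAActatacctgcttttggtctt
H3-3B end (chr17:73772515-73772538, minus strand): ctaaAATAAAatttttgaagttaa

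H2AZ1 (chr4:100869245-100871432, minus strand) has 5 exons, and H2AZ2 (chr7:44871577-44887686, minus strand) has 5 as well. H2AX (chr11:118964584-118966175, minus strand) and H2AJ (chr12:14927339-14927958, plus strand) each have 1 exon, like the cluster histones. MACROH2A1 (chr5:134670071-134734921, minus strand) and MACROH2A2 (chr10:71812602-71872038, plus strand) have 9 exons each. H3-3A (chr1:226250417-226259720, plus strand) and H3-3B (chr17:73772515-73775860, minus strand) have 4 each. The 3′ UTRs ran from 164 nt in H2AJ to 2523 nt in H2AZ2, against a median of 57 nt for cluster histones. A run of at least 5 U (TTTTT in the DNA) was present in the 3′ UTR of 87.5% of the variants, 73.6% of all coding genes and 16.9% of cluster histones, and H2AJ was the variant without one. H2AX and H2AJ had the lowest U content in the 3′ UTR, at 18.8% and 19.5%, and H3-3A the highest at 38.0%, against a median of 29.5% over all coding genes.

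**Figure D1:**
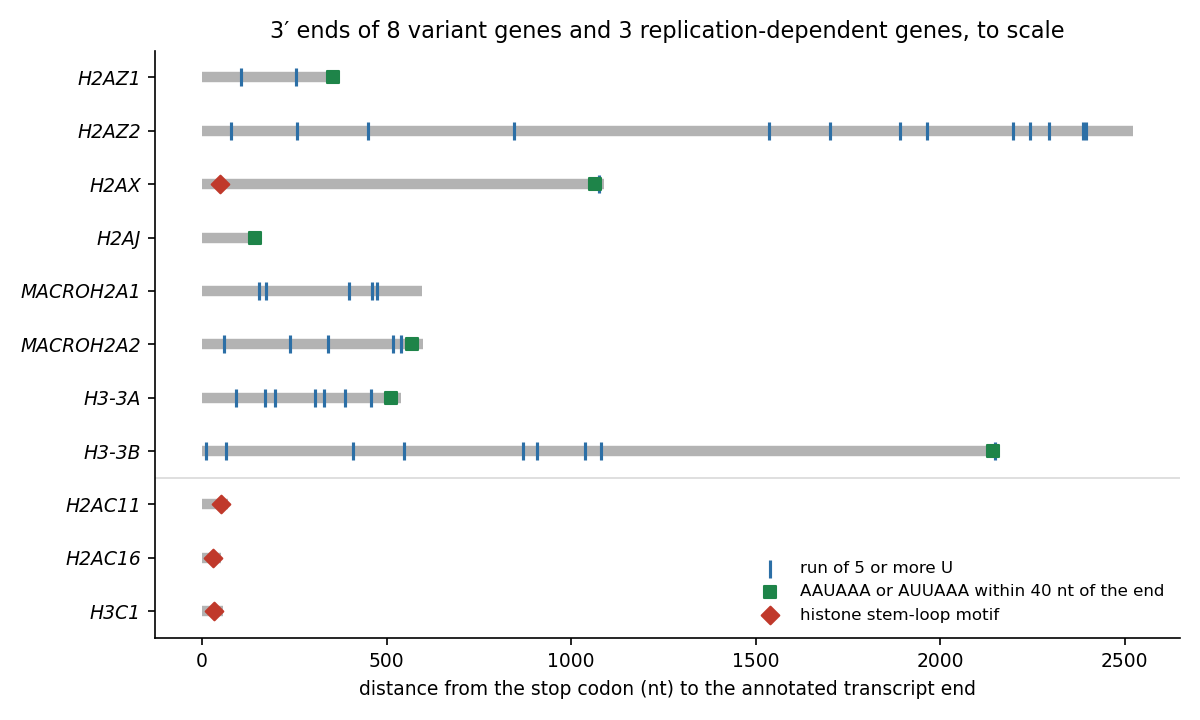
3′ UTRs of the 8 variant genes (above the line) and of 3 cluster histones (below it), drawn to scale from the stop codon to the annotated transcript end in nt; blue bars are runs of 5 or more U, green squares AAUAAA or AUUAAA within 40 nt of the end, and red diamonds the histone stem-loop motif. H2AX carries a stem-loop 50 nt after its stop codon and a poly(A) signal at the end of a UTR of 1089 nt.

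Signals are given as log2 of the processed signal minus the array's 75th percentile, called scaled log2 signal, so that 0 is the 75th percentile of that array. The log2 ratio is the mean of the TIA1 RIP arrays minus the mean of the total RNA arrays on this scale. A value relative to all genes has the median log2 ratio of the 13039 genes subtracted, which was -0.04, and does not change when a constant is added to all log2 signals of an array. By limma with Benjamini-Hochberg adjustment no gene passed an adjusted p of 0.05 in either direction (0% of genes called), and at an unadjusted p under 0.05, 144 genes were higher (1.1%) and 524 lower (4.02%) in TIA1 RIP. None of the 8 variants was in either group, and their adjusted p-values ran from 0.776 to 0.971. No variant is therefore said to have risen or fallen, and the values below describe where each one lay.

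The variants lay near the middle of all genes, while the cluster histones lay far below it. The labelling kit primed from poly(A) tails, which cluster histone mRNAs lack, and how this bears on their values was not tested. The median log2 ratio relative to all genes was 0.24 for the 8 variants and -3.28 for the 58 of 61 cluster histones that were kept. Of the variants 5 lay above the median of all genes and 3 below it, and 57 of the 58 cluster histones lay below it. The variants ranged from H2AJ, at the 15.3 percentile of all genes, to H3-3A, at the 71.8 percentile. On this scale, in 3 variants (H2AZ2, MACROH2A1 and H3-3A) both TIA1 RIP arrays were above both total RNA arrays, which held for 19.4% of all genes. In 1 variant (H2AJ) both were below, which held for 21.7% of all genes, and the arrays of the remaining 4 overlapped. With GAPDH of the same array subtracted instead, the log2 ratios of all 8 were positive, among them 1.93 for H2AZ1, 1.25 for H2AX and 0.79 for H2AJ, where the median of all genes was 2.02. With so few genes these counts are a description of the members.

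**Figure D2:**
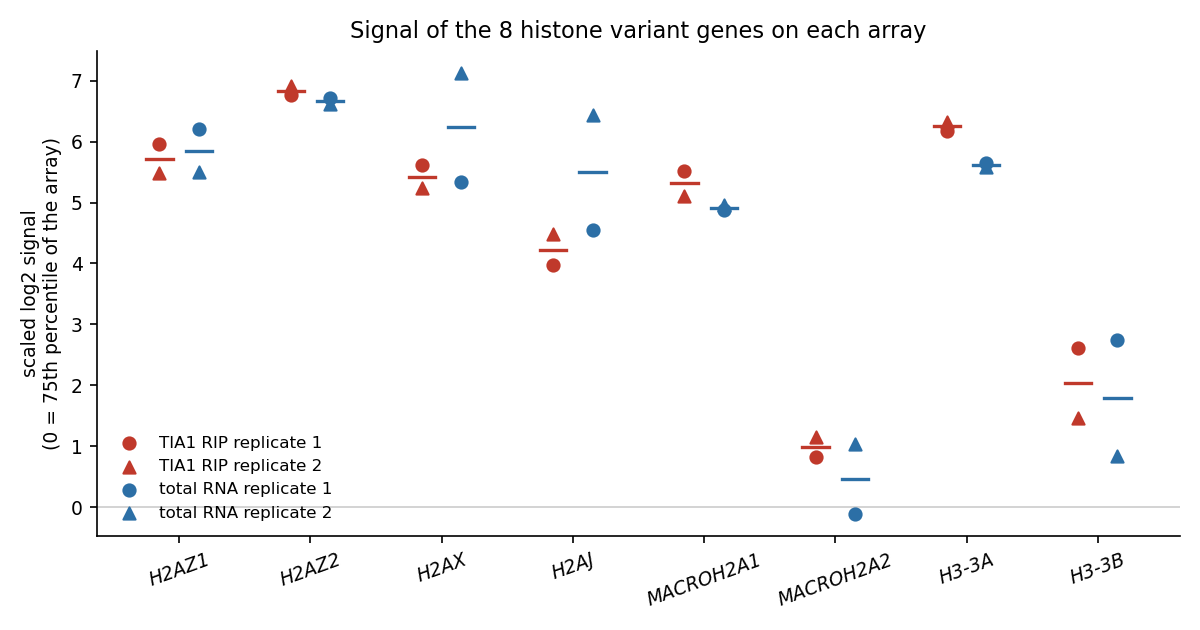
Scaled log2 signal (0 is the 75th percentile of the array) of each variant gene on the 2 TIA1 RIP arrays (red) and the 2 total RNA arrays (blue); circles are replicate 1, triangles replicate 2, and bars the mean of the 2 arrays. The total RNA replicates of H2AZ1, H2AX, H2AJ, MACROH2A2 and H3-3B lie further apart than the means of their groups do. Signals of different genes come from different probes and are not comparable in height.

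H2A.Z replaces H2A in nucleosomes next to transcription start sites and is encoded by H2AZ1 and H2AZ2. H2AZ1 read 5.96 and 5.48 in TIA1 RIP, and 6.21 and 5.50 in total RNA. The groups overlapped, and the log2 ratio was -0.13 with an SE of 0.80 (2 arrays per group, limma adjusted p = 0.971), or -0.10 relative to all genes. It lay on either side of the median of all genes depending on the array, at -0.56 against the first total RNA array and 0.51 against the second. H2AZ2 read 6.76 and 6.90 in TIA1 RIP and 6.72 and 6.62 in total RNA. These values barely separated, with a log2 ratio of 0.17, an SE of 0.77 and a limma adjusted p of 0.963. Relative to all genes H2AZ2 was at 0.20, with 0.04 against the first and 0.51 against the second total RNA array. Over their coding sequences of equal length H2AZ1 and H2AZ2 are 80.4% identical, and the longest stretch their transcripts share is 23 nt.

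H2AX is phosphorylated around DNA double-strand breaks and marks them for repair. Its single probe read 5.61 and 5.25 in TIA1 RIP, where total RNA gave 5.34 and 7.13. The second total RNA array was the highest and the first lay between the TIA1 RIP arrays, so the groups overlapped. The log2 ratio was -0.81 with an SE of 0.91 (limma adjusted p = 0.833), or 0.587-fold relative to all genes. Against the first total RNA array H2AX was at 0.02 relative to all genes, and against the second at -1.41. The low value thus rested on 1 total RNA array. The probe's place in the transcript is not in the sources used here, so the short form ending at the stem-loop printed above and the long polyadenylated form were not told apart.

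H2AJ is a close relative of the canonical H2A that is known to build up in senescent cells. It read 3.98 and 4.48 in TIA1 RIP and 4.56 and 6.43 in total RNA. Both TIA1 RIP values were below both total RNA values, although TIA1 RIP 2 minus total RNA 1 was only -0.08 (log2). The log2 ratio was -1.27 with an SE of 0.92 (limma adjusted p = 0.776), or 0.426-fold relative to all genes, the lowest among the 8 variants. H2AJ was also below the median of all genes in all 4 pairs of arrays, as 21.3% of all genes were, with -0.64 and -0.15 against the first total RNA array and -2.16 and -1.67 against the second. Against the second total RNA array alone it passed the limma test (log2 ratio -2.21, adjusted p = 0.0398), as did 2051 genes in the same direction (15.7%). That fit holds 1 total RNA array, so it assumes that total RNA varies like TIA1 RIP, whereas the SD of H2AJ was 1.33 between the total RNA arrays and 0.35 between the TIA1 RIP arrays (n = 2 each). No variant was among the 1849 genes (14.2%) called higher there. Against the first total RNA array alone no gene was called, and for H2AJ the log2 ratio was -0.33 with an adjusted p of 0.793.

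MacroH2A carries a large macro domain behind its histone part and is known from the inactive X chromosome and other silenced chromatin. MACROH2A1 read 5.52 and 5.11 in TIA1 RIP and 4.87 and 4.96 in total RNA. The TIA1 RIP arrays were both higher, and the log2 ratio of 0.40 was smaller than its SE of 0.77 (limma adjusted p = 0.904). MACROH2A2 read 0.82 and 1.15 in TIA1 RIP against -0.10 and 1.03 in total RNA. Its groups overlapped by the second total RNA array, with a log2 ratio of 0.52, an SE of 0.83 and a limma adjusted p of 0.880. Relative to all genes MACROH2A1 was at 0.37 against the first and 0.64 against the second total RNA array, and MACROH2A2 at 1.02 and 0.25. Both macroH2A genes and H3-3A were above the median of all genes in all 4 pairs of arrays, as 20.2% of all genes were.

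H3.3 is laid down independently of DNA replication, at active genes by the HIRA complex and at repeats by DAXX and ATRX. H3-3A and H3-3B encode the same protein. H3-3A read 6.17 and 6.32 in TIA1 RIP, above the 5.64 and 5.59 of total RNA. The replicates were close, with an SD of 0.10 in TIA1 RIP and 0.04 in total RNA (n = 2 arrays each), and the log2 ratio of 0.63 was the highest of the variants, at 1.59-fold relative to all genes. limma draws each gene's variance toward that of all genes, and its SE was 0.77 and its adjusted p 0.845. The 4 probes of H3-3A did not run together. Their log2 ratios were 1.03, 0.57, -0.31 and 1.24, and the probe at -0.31 was the brightest of the 4. That probe read 7.07 and 7.22 in TIA1 RIP and 7.23 and 7.68 in total RNA.

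On the mean of its kept probes H3-3B was the least steady of the variants between replicates. It read 2.61 and 1.46 in TIA1 RIP and 2.74 and 0.83 in total RNA, with a log2 ratio of 0.25, an SE of 0.97 and a limma adjusted p of 0.952. The groups overlapped, and relative to all genes H3-3B was at -0.77 against the first total RNA array and at 1.49 against the second. Its mean joins a bright and a dim probe. The bright probe read 5.54, 4.69, 5.62 and 5.03 on TIA1 RIP 1, TIA1 RIP 2, total RNA 1 and total RNA 2, with a log2 ratio of -0.21. The dim probe read -0.32, -1.77, -0.14 and -3.36 in the same order, with a log2 ratio of 0.71, and was not above background on the second total RNA array. The positive mean of H3-3B thus rested on a value at background. H3-3A and H3-3B are 78.6% identical over their coding sequences, with a longest shared stretch of 14 nt.

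Next to the variants, the cluster histones stood apart in every pair of arrays. Of the 58 genes, 56 had both TIA1 RIP arrays below both total RNA arrays (21.7% of all genes did) and 56 were below the median of all genes in all 4 pairs (21.3% of all genes). The filter let a gene pass through total RNA alone, and how many cluster histones did so is not given here. Over probes detected on all 4 arrays their median relative to all genes was -2.96. At an unadjusted p under 0.05, 38 of the 58 cluster histones were lower in TIA1 RIP, against 4.02% of all genes. None passed after Benjamini-Hochberg adjustment, where the lowest limma adjusted p was 0.591. In the limma fit with a replicate block 33 of the 58 were called lower after the same adjustment, as 2.29% of all genes were, and none of the variants was called. That fit gave each of these genes and variants the same SE of 0.89. Its calls therefore followed the size of the log2 ratio and not the spread of the single gene. H2AC11, the lowest, read -1.29 and -1.34 in TIA1 RIP and 3.15 and 6.04 in total RNA, a log2 ratio of -5.91. H2AC16, in the middle of the list, read -0.28 and -1.12 against 1.65 and 3.71, a log2 ratio of -3.38. H3C1, the highest, read 4.03 and 4.25 against 3.81 and 4.07, a log2 ratio of 0.20, and its groups overlapped. By family the median relative to all genes was -4.06 for 15 H2A genes, -1.55 for 17 H2B genes, -2.74 for 13 H3 genes and -4.47 for 13 H4 genes.

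Of the cluster histones 52 lay below H2AJ, the lowest variant, and 6 lay within the range of the variants. The median of the variants minus that of the cluster histones was 3.52 (log2), with a pooled SD between replicate arrays of 0.858. That SD is of the difference on single arrays, pooled over both groups, and is not an error of the 3.52. In the 4 pairs of arrays the median of the variants was 0.09, 0.60, -0.01 and 0.42 relative to all genes, for TIA1 RIP 1 against total RNA 1, TIA1 RIP 1 against total RNA 2, TIA1 RIP 2 against total RNA 1 and TIA1 RIP 2 against total RNA 2. In the same order the median of the cluster histones was -1.99, -4.21, -2.34 and -4.44. The pairs share arrays and are not independent of each other. H2AX, which has the stem-loop, and H2AJ, which has not, were the variants nearest to the cluster histones against the second total RNA array. Against the first they were not, since H3-3B (-0.77) and H2AZ1 (-0.56) lay below H2AJ (-0.40) and H2AX (0.02) relative to all genes.

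**Figure D3:**
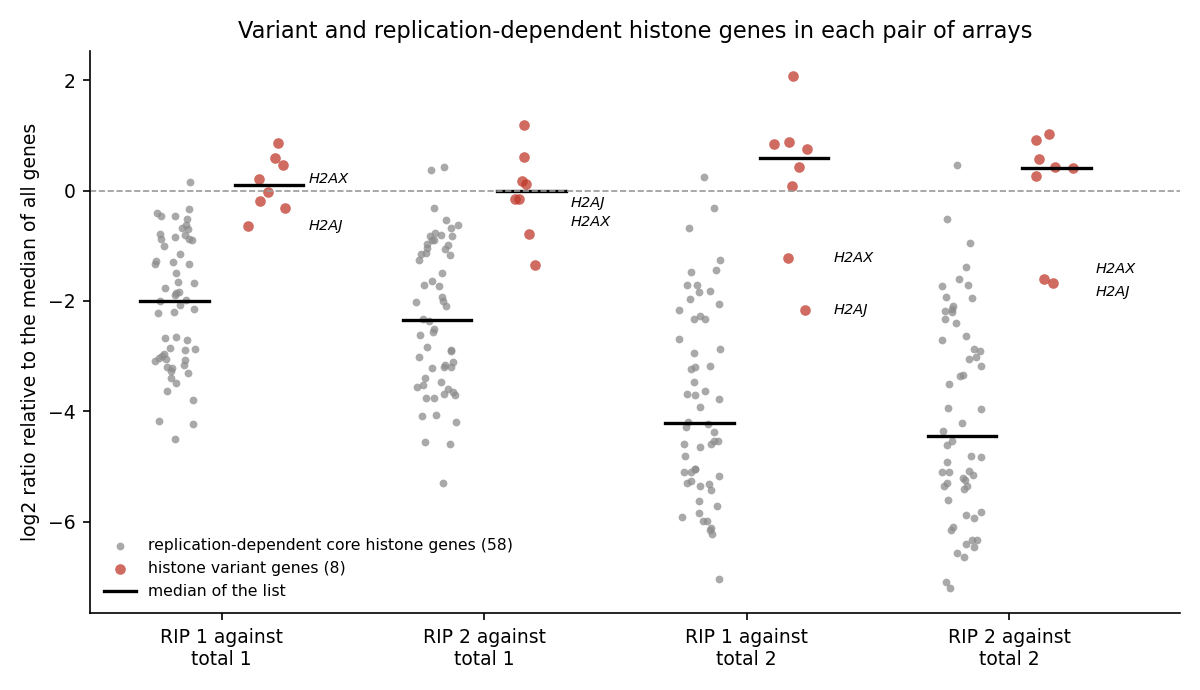
log2 ratio relative to the median of all genes (dashed line) in each of the 4 pairs of a TIA1 RIP and a total RNA array, for 58 cluster histones (grey) and 8 variants (red); bars are the median of each list, and points are spread sideways only to be visible. The medians of the cluster histones lie between -4.44 and -1.99 and those of the variants between -0.01 and 0.60.

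The choice of the total RNA array moved the variants in opposite directions. Over all 8 the median relative to all genes was 0.03 against the first total RNA array and 0.51 against the second. Between the total RNA arrays (second minus first, relative to all genes) H2AX was at 1.41, H2AJ at 1.50 and MACROH2A2 at 0.75. The other 5 were negative, from -0.29 in MACROH2A1 to -2.28 in H3-3B. The mean of H3-3B includes the dim probe that was not above background on the second total RNA array. The cluster histones differed between the same arrays by a median of 1.86, with 56 of 58 above 0, and their median against TIA1 RIP was -2.16 with the first total RNA array and -4.22 with the second.

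**Figure D4:**
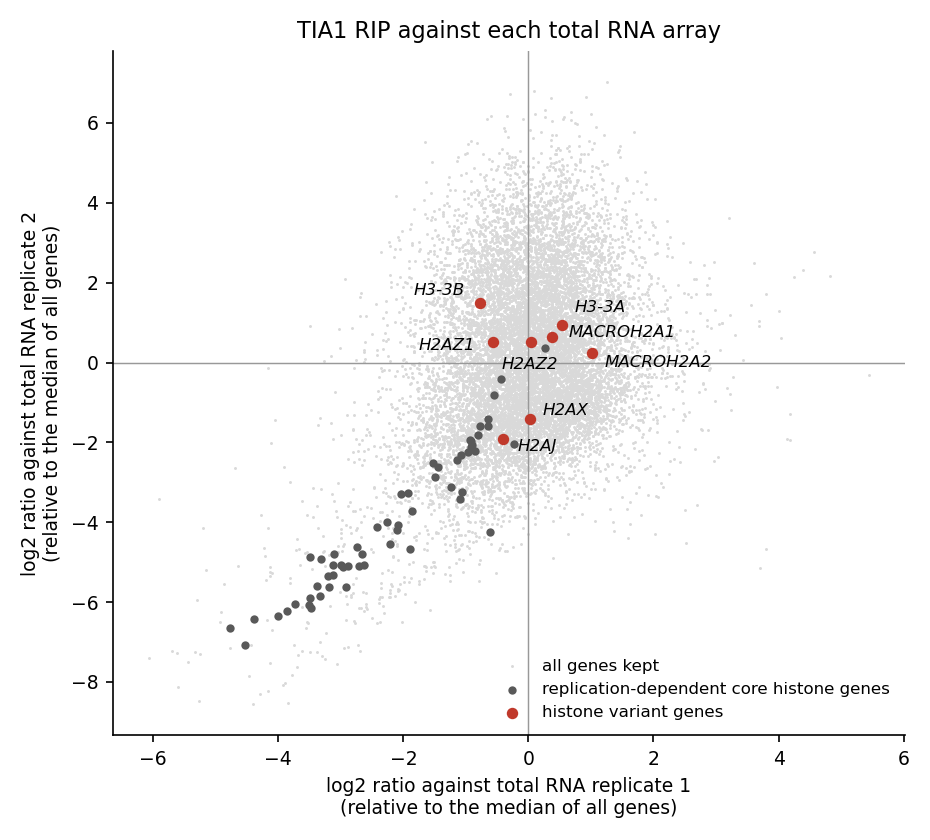
Mean TIA1 RIP against the first (horizontal axis) and the second total RNA array (vertical axis), as log2 ratios relative to the median of all genes; light points are all genes kept, dark points cluster histones and red points the variants. H3-3B and H2AZ1 are below 0 on the horizontal and above 0 on the vertical axis, and H2AX and H2AJ are at 0.02 and -0.40 on the horizontal but at -1.41 and -1.91 on the vertical axis.

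GC content went along with the ratios of all genes, and the brightest genes had lower ratios than the rest. In genes ranked by the GC content of the annotated transcript, the median log2 ratio relative to all genes went from 1.29 in the lowest decile to -0.96 in the highest. H2AX (66.8% GC) and H2AJ (63.1%) were in the highest decile, and H2AZ2, H3-3A and H3-3B in the third decile, whose median was 0.79. Of the 8 variants 5 lay between the quartiles of their own decile, and the median of the variants minus that of their decile was -0.20. For the 54 cluster histones with a transcript it was -2.58, with 2 genes between the quartiles. Against the first total RNA array alone, the deciles that hold variants had medians from -0.06 to -0.01, and against the second alone the third decile was at 1.74 and the highest at -1.75. Of the variants 6 were in the brightest decile of genes, whose median was -0.71, while the medians of the other brightness deciles ran from -0.09 to 0.20. The part of GC content and brightness in the variants' values was not tested.

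**Figure D5:**
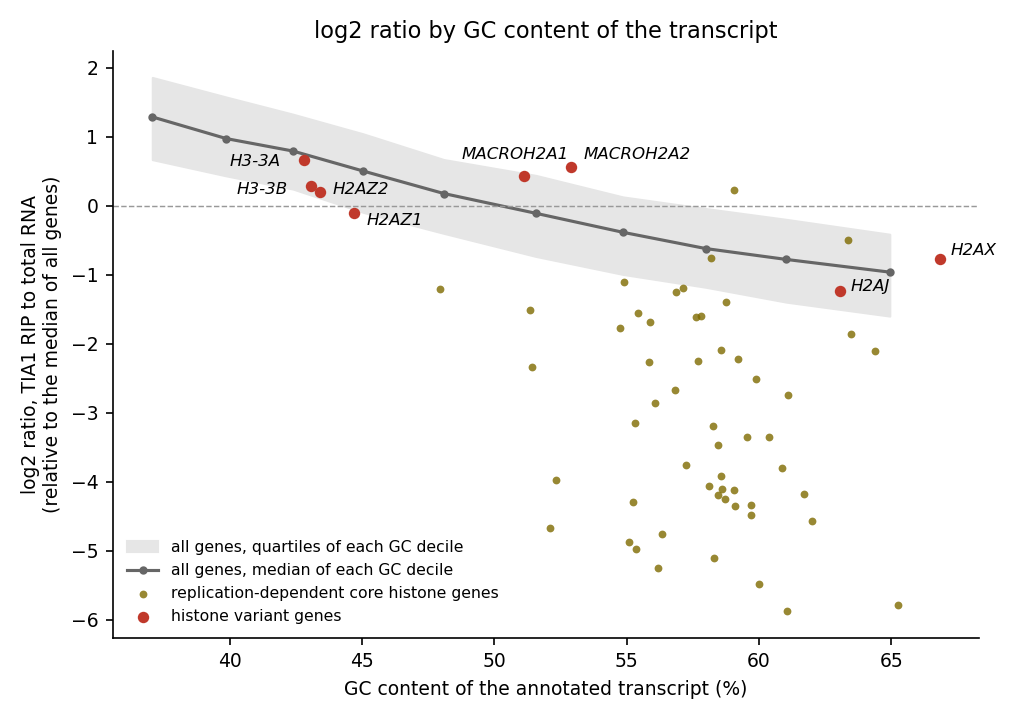
log2 ratio (TIA1 RIP minus total RNA) relative to the median of all genes, by GC content of the annotated transcript in percent; the line and band are the median and quartiles of all genes in deciles of GC content, red points the variants and olive points the cluster histones. H2AX and H2AJ lie at the GC-rich end beside the line, where the median of all genes is -0.96, and most cluster histones lie below the band.

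The genes that place these variants in chromatin gave no call by limma after Benjamini-Hochberg adjustment in the fit without a replicate block. Of 8 genes of H3.3 deposition 6 were kept, with a median of 0.40 relative to all genes, from the HIRA partner CABIN1 (log2 ratio -1.57) to the chromatin protein DEK (3.11). DEK read 3.75 and 3.78 in TIA1 RIP and 3.32 and -2.00 in total RNA, so that its high value came from the second total RNA array. Under the replicate block limma gave DEK an adjusted p of 0.0239. That fit used an SE of 0.89 for DEK, as for the other listed genes, although its SD between the total RNA arrays was 3.76. Of 13 genes of H2A.Z exchange 10 were kept, with a median of -0.25, from the ATPase RUVBL2 (-1.74) to ANP32E, a chaperone that removes H2A.Z (2.32). ANP32E had the same pattern, with 2.25 and 2.36 in TIA1 RIP against 1.75 and -1.79 in total RNA. All 11 genes of H2AX signalling were kept, with a median of 0.37, from MDC1, which binds phosphorylated H2AX (-1.58), to the ubiquitin ligase RNF8 (1.02). Of 3 genes tied to macroH2A 2 were kept, PARP1 (-0.63) and the remodeller HELLS (0.94). Against the first and the second total RNA array alone, the median relative to all genes was -0.37 and 0.76 for H3.3 deposition. It was -0.30 and -0.02 for H2A.Z exchange, and -0.81 and 1.52 for H2AX signalling. In the same order PARP1 was at -0.48 and -0.56, and HELLS at -0.71 and 2.82.

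General histone chaperones (14 of 14 kept) had a median of 0.52 relative to all genes, from TONSL (-1.30), which reads newly made histones, to the nucleosome assembly protein NAP1L1 (1.33). Factors of histone mRNA 3′ processing (15 of 19 kept) had a median of 0.48, from the scaffold protein SYMPK (-2.88) to the terminal uridylyltransferase TUT4 (1.64). The chaperone median was -0.38 against the first total RNA array and 0.81 against the second. For the 3′ processing factors it was -0.31 and 0.58. NAP1L1 was at -0.28 and 3.15 relative to all genes, and TUT4 at -0.36 and 3.86. Their high values thus came from the second total RNA array, while TONSL and SYMPK were below the median of all genes against both. SYMPK alone of the genes in these 6 lists had an unadjusted p under 0.05, and it was lower in TIA1 RIP, as 4.02% of all genes were. With the replicate block its limma adjusted p was 0.0483, and in these lists DEK and SYMPK were the genes called by that fit. The SE was 0.89 for both, as for the other listed genes. The reference genes GAPDH and ACTB had log2 ratios of -2.06 and -1.83, below those of all 8 variants.

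By the distance of their centred signals on the 4 arrays, out of 9237 genes above background on all 4, the genes most like the mean profile of the variants were ZDHHC5 (distance 0.0516 in log2 units), CKS1B (0.0855) and TSPYL1 (0.0905). ZDHHC5 read 3.94 and 3.76 in TIA1 RIP and 3.70 and 4.18 in total RNA, a log2 ratio of -0.09. The mean profile differed little between the groups, but it averages variants that moved in opposite directions. Between the total RNA arrays (second minus first, relative to all genes) H2AZ1 was at -1.09 and H2AJ at 1.50. H3-3B entered this profile by its bright probe alone, since the dim probe was not above background on every array.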

How the data were processed

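The authors scanned 4 single-colour Agilent arrays (2 TIA1 RIP, 2 total RNA) and deposited Agilent Feature Extraction 10.7.1.1 output, with spot intensities on a linear scale, background-subtracted but not normalized between arrays. The deposited files also hold other columns, the flags for uneven, deviant and detected spots. The annotation build in the file headers is GRCh37. Labelling used the Low Input Quick Amp kit, which primes from poly(A) tails, and how this bears on transcripts without a tail was not tested.

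Of 58717 spots outside the controls, 299 to 382 per array were flagged as uneven or deviant and left out. Each array's 75th percentile was subtracted from its log2 intensities, and replicate spots were averaged per probe. Detection required a share of at least 0.5 of the spots well above background, and probes detected on both arrays of a group were kept (20106 of 50599). Symbols came from RefSeq (GRCh38.p14, names only) and GENCODE on GRCh37 for 34510 probes (68.2%), and the kept probes of a gene were averaged. Transcript features and sequences were read from GENCODE canonical transcripts on the GRCh37 genome. Tests were two-sided, with limma 3.58.1 in R 4.3.3 (lmFit, eBayes, no block), and p-values were adjusted by Benjamini-Hochberg over 13039 genes, after a trial on simulated data. Tables and plots used Python 3.11.15, pandas 2.3.3 and matplotlib 3.10.9. The 4 arrays limit the precision.

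Alternatives covered the scaling (detected probes, quantile, GAPDH, E1A spike-ins), the background correction, the detection filter, the brightest probe, the replicate block and each array left out. Normexp with an offset of 50 used the median spot signal, because the mean signal planned for it was not among the columns used here. The text names all 8 variants, the lowest, middle and highest cluster histone, the lowest and highest gene of each list (save 1 gene not reported here), GAPDH, ACTB and the 3 genes most like the variants' mean profile. The variants and the lists were chosen with earlier results of these data known.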

Additional observations from a re-analysis of the deposited data

How the results depend on the processing

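Values relative to all genes do not change with scaling by a constant per array, but the sign of a plain log2 ratio does. Quantile normalization is no such constant and took H2AZ1 from -0.10 to 0.42, H2AZ2 from 0.20 to 1.13 and H3-3A from 0.67 to 1.32 relative to all genes. The median log2 ratio of all genes was -0.04 here, 0.27 with the percentile taken over detected probes, 0.26 after quantile normalization, 2.02 with GAPDH subtracted and 4.78 with 6 E1A spike-in probes. The sign of H2AZ1 turned to 0.18 over detected probes, 0.68 by quantile, 1.93 with GAPDH, 4.68 with E1A and 0.32 with normexp. H2AX turned to 0.10 by quantile, 1.25 with GAPDH and 4.01 with E1A, and H2AJ to 0.79 with GAPDH and 3.55 with E1A. With E1A scaling 8344 of all 13039 genes were called higher, and 6 of the 8 variants were among them. Most genes were thus called under this scaling, and the count says nothing particular to the variants. The median of the variants relative to all genes moved to 0.60 by quantile, 0.62 with normexp and -0.13 with the brightest probe of each gene, which turned H3-3A to -0.31 and H3-3B to -0.21. Probes detected on all 4 arrays gave -0.21 for H3-3B too. Without a detection filter H2AZ2 was at -0.36 and MACROH2A1 at -0.12, where their undetected second probes enter the mean and the median of all genes was -0.57. The cluster histone median stayed below that of the variants under every alternative run.

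Without the second total RNA array the median of the variants minus that of the cluster histones was 2.19, and without the first 4.73. Leaving out each array in turn gave -0.079 to 0.51 for the median of the variants and -4.22 to -2.16 for that of the cluster histones. Called genes ranged from 0 to 1849 higher and from 0 to 2051 lower, both highest without the first total RNA array, and called variants from 0 to 1 (H2AJ). With TIA1 RIP 1 left out 7 genes were called lower. Log2 ratios ranged from -0.49 to 0.22 for H2AZ1, -1.70 to 0.091 for H2AX, -0.046 to 1.09 for MACROH2A2 and -0.70 to 1.20 for H3-3B, and H2AZ2, H2AJ, MACROH2A1 and H3-3A kept their sign.

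The labels do not say what a replicate number shares, and deviations of same-numbered arrays correlated with r = 0.453 across genes. With the replicate block limma called 57 genes higher (0.437%) and 299 lower (2.29%). None was a variant, and 33 were cluster histones, all of these lower. The SE was 0.89 for each cluster histone and each variant alike, so the calls among them followed the log2 ratio and not each gene's own spread. All 4 arrays were on 1 slide, so the fit with slide as a block could not be run. Where the cause of a change is not given, it was not tested.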

Other observations

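CENPA, the centromeric H3 variant, and the linker histone H1-10 had positive log2 ratios (1.12 and 0.27), and neither passed the limma threshold. CENPA was chosen after its values were seen. CENPA read 2.42 and 2.06 in TIA1 RIP and 1.31 and 0.92 in total RNA, so that both TIA1 RIP arrays were above both total RNA arrays, as in 19.4% of all genes. H1-10 read 1.56 and 2.02 in TIA1 RIP and 0.65 and 2.38 in total RNA, and its groups overlapped.

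The transcripts of the variants share short stretches with those of cluster histones. The longest was 54 nt in H2AX (with H2AC25), then 35 nt in H2AJ, 26 nt in H3-3B and 23 nt in H3-3A, and 15 to 20 nt in the other 4. Binding of cluster histone RNA to the probes of H2AX or H2AJ was not tested, since probe sequences are not in the sources used here.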
